A study of Rattus norvegicus with 10 samples.

Results

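The transcription factor NRF2 (gene Nfe2l2), its inhibitor Keap1 and 7 of its target genes (Hmox1, Nqo1, Srxn1, Gclc, Gclm, Txnrd1 and Slc7a11) were followed in the injured rat heart. These 9 genes were taken by symbol from a table of 31580 genes measured in tissue and from 39537 features measured in nuclei, and all 9 were found in both. The tissue was the area at risk, the heart muscle that loses its blood when the left coronary artery is tied. Rats were given vehicle or BT2, which is a code name for a small molecule. The tissue groups were BT2 at 4 h, vehicle at 4 h, BT2 at 24 h and vehicle at 24 h, with 2 libraries in each. Nuclei were profiled at 24 h as 1 library from BT2 (100 mg/kg) and 1 from vehicle. All groups shared the injury, and no uninjured heart was analysed here. The sources used here give neither the dose for the tissue samples nor the strain, sex or age of the rats. The zero point of the hours is ligation in the titles of the samples and the ischaemia and reperfusion injury in the text on the series. Whether the libraries of 1 group were separate animals is not stated, so p-values measure only the spread between libraries, which may be technical.

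NRF2 is a bZIP transcription factor that is made continuously and normally destroyed. KEAP1 holds it and presents it to a CUL3 ubiquitin ligase. Oxidants and electrophiles modify cysteines of KEAP1, NRF2 then accumulates, pairs with a small MAF protein and binds the antioxidant response element near its target genes, where BACH1 competes for the same sites. Control of NRF2 is largely at the protein level, so the Nfe2l2 transcript does not measure its activity, and no protein was measured here. In the heart the pathway is known for its part in handling the oxidant burst of reperfusion. Its targets make glutathione (Gclc, Gclm and, by importing cystine, Slc7a11), reduce thioredoxin and peroxiredoxins (Txnrd1, Srxn1), reduce quinones (Nqo1) and break down haem (Hmox1).

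Promoter windows from RefSeq (rat build GRCr8, 250 bases before to 50 after a gene's start) were searched on both strands for the letters TGACNNNGC, the core of the antioxidant response element. The core overlaps the AP-1 site, whose letters are TGANTCA. Windows were given for 8 of the 9 genes. Of these, 3 held the core (37.5%), against 13.1% of the 27457 genes with a window. The stretches are shown because they match the core letters of the element by which the family is defined. The core is in capitals, with 10 bases on each side where the window allowed. The Gclm stretch lay at chr2:213031953-213031981 (minus strand), its core 172 bases before the start. The Txnrd1 stretch lay in the second of 2 windows at chr7:22755964-22755992 (plus strand), 78 bases before the start. The Nfe2l2 stretch lay at chr3:81028950-81028971 (minus strand), 39 bases after the start.
Gclm: tggaagacaaTGACTAAGCagaaaccgca
Txnrd1: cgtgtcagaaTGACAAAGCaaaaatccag
Nfe2l2: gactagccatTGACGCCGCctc

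The form TGACTCAGC, which holds both the core and a whole AP-1 site, was in 0 of the 8 windows and in 0.484% of all genes. Among 85 other genes of the wider lists described below that had a window, 20 held the core (23.5%) and 4 held TGACTCAGC. These 4 are printed because they carry the same letters and are set beside their measured differences further on. They are the conjugating enzyme Gstp1 (chr1:210769748-210769776, minus strand), the peroxidase Prdx1 (chr5:135383761-135383789, minus strand), the epoxide hydrolase Ephx1 (chr13:95263156-95263184, plus strand) and malic enzyme Me1 (chr8:96540393-96540421, minus strand). A match describes these windows and is not a measured binding site.
Gstp1: tccactgtgtTGACTCAGCatccggggcg
Prdx1: cggcggggtaTGACTCAGCgctttccctg
Ephx1: atagccccaaTGACTCAGCtgatctgttg
Me1: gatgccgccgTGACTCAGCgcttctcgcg

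Total counts were 13735630 and 19171154 for BT2 at 4 h and 10397310 and 17696344 for vehicle at 4 h. At 24 h they were 20767609 and 21648965 for BT2 and 24480984 and 20813410 for vehicle. Cardiomyocyte markers were present in every library, with 10 of 10 tested. Their summed level at 24 h was 63152 and 46790 CPM (counts scaled to a common library total) in BT2 tissue and 28468 and 29453 CPM in vehicle tissue. Macrophage markers at 24 h (13 of 13 tested) summed to 1324 and 1895 CPM in BT2 tissue and 5204 and 7598 CPM in vehicle tissue. Neutrophil markers at 4 h (9 of 10 tested) summed to 195 and 295 CPM in BT2 tissue and 582 and 1823 CPM in vehicle tissue, with the second vehicle library the highest. No tested marker of these 3 lists was at 0 in any library. In bulk tissue, fewer cells of a type and less RNA per cell cannot be told apart. The part of these markers in the differences below was not tested.

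BT2 tissue had less of several NRF2 target transcripts than vehicle tissue, and not of all. At 4 h Srxn1, Gclc and Txnrd1 were lower, and at 24 h Srxn1 and Gclc were lower while Gclm and Keap1 were higher. Levels are CPM, also scaled for library composition, and are read between libraries of 1 gene, not between genes. A gene was called at an adjusted p under 0.05 (edgeR quasi-likelihood test, two-sided, Benjamini-Hochberg over 15216 genes). All 9 genes passed the filter on low counts. At 4 h 0 members were called higher and 3 lower, and 6 were not called, beside 6.67% of all tested genes called higher and 9.73% lower. At 24 h 2 members were called higher and 2 lower, and 5 were not called, beside 18.9% of all genes called higher and 20.7% lower, so the count at 24 h was near that background. The median log2 fold change of the members was -0.53 at 4 h and -0.71 at 24 h, where that of all genes was 0.00 and -0.01. Both BT2 libraries lay below both vehicle libraries for 5 members at 4 h and above for 1, as did 30.1% and 29.2% of all genes. At 24 h they lay below for 6 members and above for 3, as did 39.5% and 37.7% of all genes. The members and the wider lists below were chosen with earlier results of these data known. The values of all genes therefore stand beside them as description alone.

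**Figure D1:**
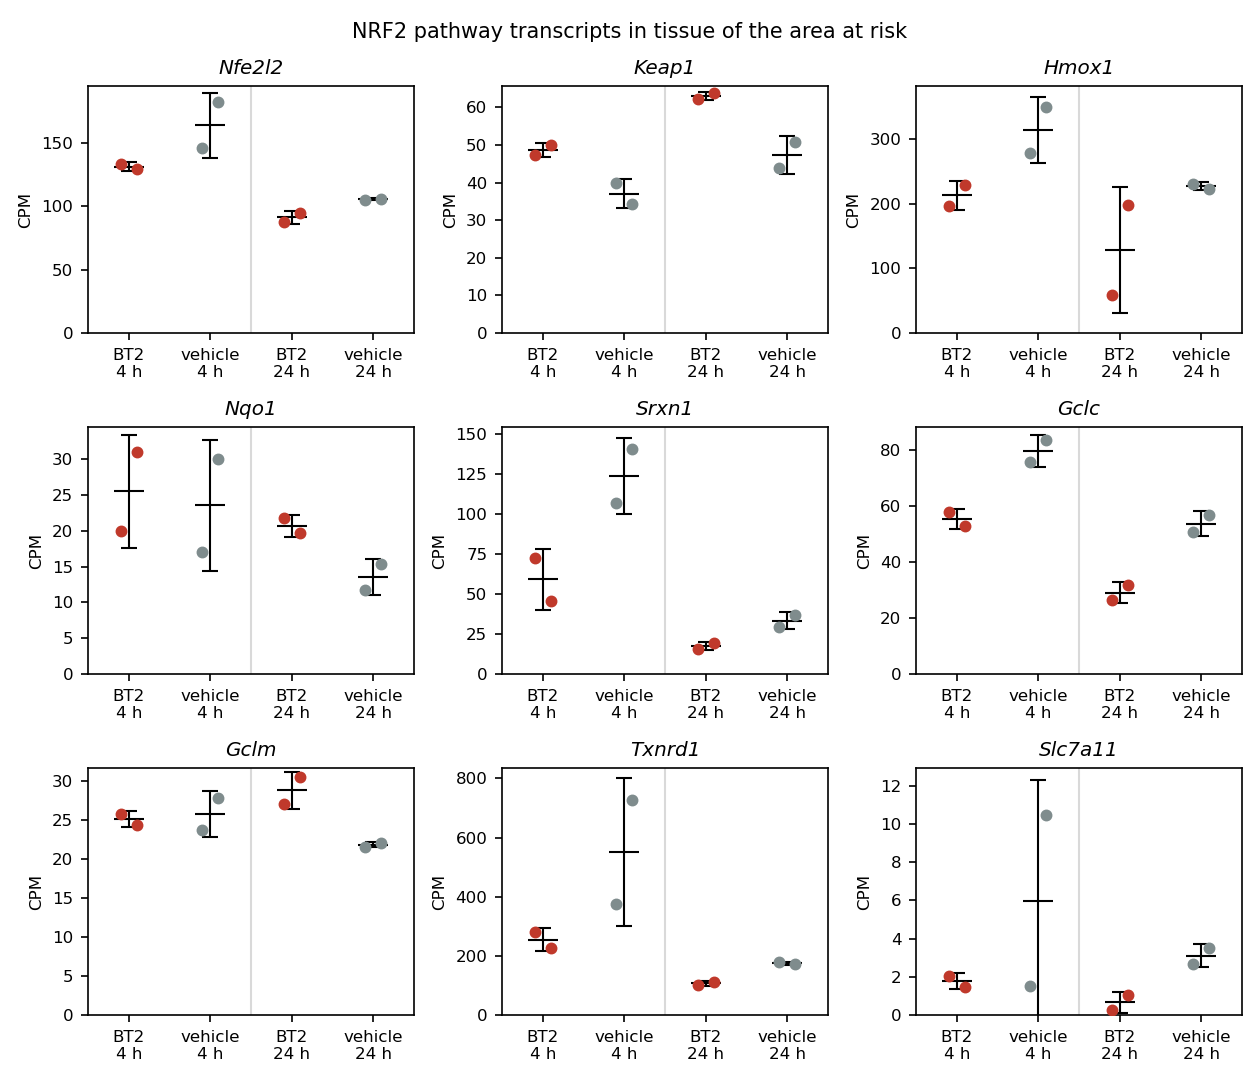
Level of each of the 9 genes in CPM (linear axes from 0) in every tissue library. Points are libraries (red BT2, grey vehicle), and bars are the mean and SD of 2 libraries. Gclc has both BT2 libraries below both vehicle libraries at each time, and the second vehicle library at 4 h stands high for Txnrd1 (727 CPM) and Slc7a11 (10.4 CPM).

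Nfe2l2 itself was not called. It had 134 and 129 CPM in BT2 tissue at 4 h, against 145 and 182 CPM in vehicle tissue, and the BT2 libraries were both the lower. At 24 h its level was 87.3 and 94.97 CPM in BT2 tissue, against 105 and 106 CPM in vehicle tissue. The log2 fold change was -0.32 ± 0.12 (SE) at 4 h and -0.21 ± 0.12 at 24 h, with edgeR adjusted p-values of 0.101 and 0.188.

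Keap1, the adaptor that holds NRF2 for degradation, ran the other way. It had 47.3 and 50.005 CPM in BT2 tissue at 4 h, against 39.8 and 34.3 CPM in vehicle tissue. At 24 h the values were 62.2 and 63.8 CPM in BT2 tissue and 43.8 and 50.9 CPM in vehicle tissue. The groups did not overlap at either time. The log2 fold change was 0.40 ± 0.12 at 4 h (edgeR adjusted p = 0.0541) and 0.41 ± 0.11 at 24 h (adjusted p = 0.0218), so only the later value passed the test. The 24 h call was lost without the first BT2 library (adjusted p = 0.0879), the second BT2 library (0.0809) or the first vehicle library (0.157). The count of Nfe2l2 over that of Keap1 was 2.82 and 2.58 in BT2 tissue at 4 h, against 3.65 and 5.30 in vehicle tissue, and 1.40 and 1.49 in BT2 tissue at 24 h, against 2.40 and 2.08 in vehicle tissue. This ratio is not corrected for gene length and compares libraries alone.

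Gclc, the catalytic subunit of glutamate-cysteine ligase, which carries out the limiting step of glutathione synthesis, had the firmest difference. It had 58.0 and 52.8 CPM in BT2 tissue at 4 h, against 75.7 and 83.7 CPM in vehicle tissue. The 24 h level was 26.4 and 31.8 CPM in BT2 tissue, against 50.7 and 56.9 CPM in vehicle tissue. Every BT2 library was below every vehicle library of its time. Gclc fell by 0.53 ± 0.12 on the log2 scale at 4 h (edgeR adjusted p = 0.0279) and by 0.89 ± 0.12 at 24 h (adjusted p = 0.00164). The 24 h call held in all 10 alternative settings tried, including those without 1 library, with an adjusted p of at most 0.0175.

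Gclm, the modifier subunit that makes the same enzyme more efficient, had another pattern than Gclc. It had 25.8 and 24.4 CPM in BT2 tissue at 4 h, against 23.7 and 27.9 CPM in vehicle tissue, with overlapping groups. At 24 h Gclm had 27.1 and 30.5 CPM in BT2 tissue, against 21.6 and 22.04 CPM in vehicle tissue. The log2 fold change was -0.04 ± 0.13 at 4 h (edgeR adjusted p = 0.848), and Gclm was higher by 0.40 ± 0.12 at 24 h (adjusted p = 0.0309). The 24 h call did not pass in any of the 4 fits without 1 library (adjusted p up to 0.159). The count of Gclc over that of Gclm was 2.24 and 2.16 in BT2 tissue at 4 h, against 3.19 and 3 in vehicle tissue. At 24 h it was 0.973 and 1.04 in BT2 tissue, against 2.35 and 2.58 in vehicle tissue.

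Slc7a11, the cystine importer xCT, was scarce. It had 2.06 and 1.47 CPM in BT2 tissue at 4 h, against 1.52 and 10.4 CPM in vehicle tissue, so a single vehicle library stood high and the groups overlapped. At 24 h Slc7a11 had 0.271 and 1.06 CPM in BT2 tissue (6 and 26 counts), against 2.67 and 3.52 CPM in vehicle tissue (77 and 85 counts). Its log2 fold change was -1.83 ± 0.82 at 4 h and -2.18 ± 0.87 at 24 h, and neither passed (edgeR adjusted p = 0.168 and 0.0835). Without the second vehicle library the 4 h value turned to 0.19. That library also had the highest sum of neutrophil markers.

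Txnrd1, cytosolic thioredoxin reductase, had 282 and 227 CPM in BT2 tissue at 4 h, against 374 and 727 CPM in vehicle tissue. The 24 h values were 101 and 113 CPM in BT2 tissue, against 179 and 172 CPM in vehicle tissue. The groups did not overlap at either time, and the second vehicle library at 4 h was the highest of all. The log2 fold change was -1.12 ± 0.28 at 4 h (edgeR adjusted p = 0.0350) and -0.71 ± 0.28 at 24 h (adjusted p = 0.0764). Without the second vehicle library the 4 h value was -0.56 (adjusted p = 0.0914).

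Srxn1, sulfiredoxin, which restores overoxidised peroxiredoxins, had 72.4 and 45.8 CPM in BT2 tissue at 4 h, against 107 and 141 CPM in vehicle tissue. By 24 h Srxn1 had 15.6 and 19.2 CPM in BT2 tissue, against 29.6 and 37.2 CPM in vehicle tissue. All BT2 libraries were below the vehicle libraries of the same time. Srxn1 fell by 1.07 ± 0.24 on the log2 scale at 4 h (edgeR adjusted p = 0.0265) and by 0.94 ± 0.25 at 24 h (adjusted p = 0.0198). The 24 h call was lost without the first BT2 library (adjusted p = 0.116) or the second vehicle library (0.105).

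The 3 calls at 4 h depended on single libraries. When only the 4 libraries of that time were fitted, Srxn1, Gclc and Txnrd1 had adjusted p-values of 0.0669, 0.0652 and 0.107, and none passed. None of the 3 passed without the second BT2 library (29 genes called in all, against 2495 in the full fit), nor without the second vehicle library (274 genes called).

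Nqo1, which reduces quinones by a pair of electrons, was not called at either time. It had 19.9 and 31.0 CPM in BT2 tissue at 4 h, against 17.1 and 30.001 CPM in vehicle tissue. At 24 h Nqo1 had 21.7 and 19.6 CPM in BT2 tissue, against 11.8 and 15.3 CPM in vehicle tissue, where the groups did not overlap. Nqo1 had a log2 fold change of 0.11 ± 0.30 at 4 h and 0.61 ± 0.29 at 24 h (edgeR adjusted p = 0.839 and 0.136).

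Hmox1, haem oxygenase 1, which degrades haem and is also induced through release of BACH1, had 197 and 229 CPM in BT2 tissue at 4 h, against 278 and 351 CPM in vehicle tissue. At 24 h Hmox1 had 59.5 and 198 CPM in BT2 tissue, against 232 and 224 CPM in vehicle tissue. The first BT2 library at 24 h stood far below the second. Hmox1 had a log2 fold change of -0.56 ± 0.47 at 4 h and -0.82 ± 0.48 at 24 h (edgeR adjusted p = 0.456 and 0.212). The 24 h value was -0.21 without the first BT2 library (adjusted p = 0.409) and -1.94 without the second (adjusted p = 0.0015).

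**Figure D2:**
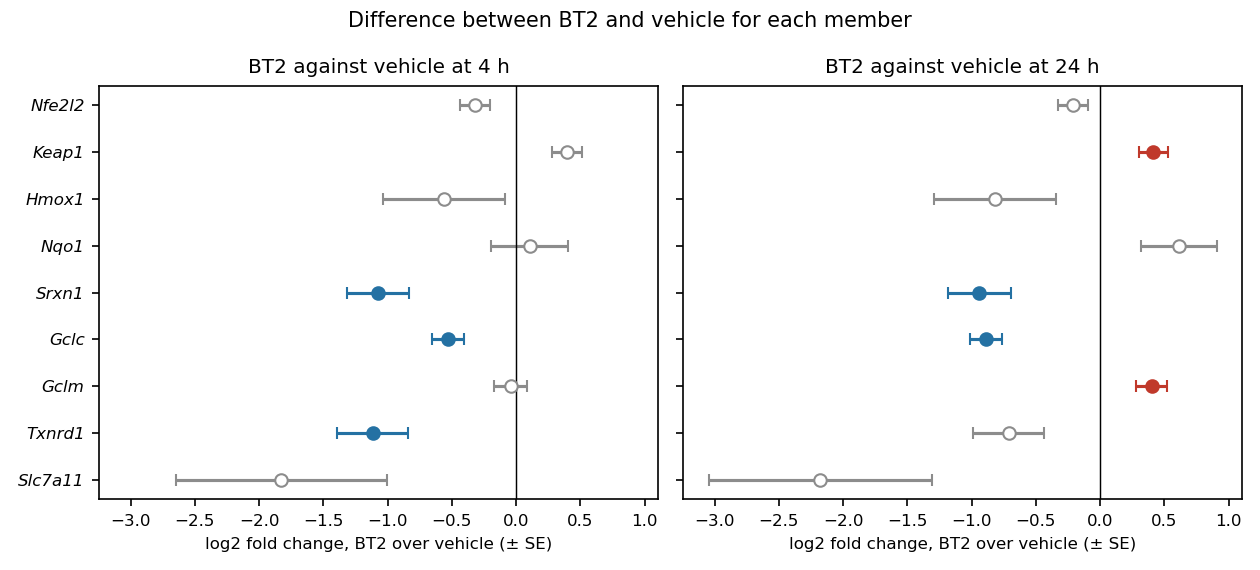
Log2 fold change of BT2 over vehicle ± SE for each gene, at 4 h (left) and 24 h (right). Filled symbols passed the test (blue lower, red higher) and open grey symbols did not. Srxn1 and Gclc are filled on the lower side at both times, and Keap1 and Gclm are filled on the higher side at 24 h.

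No member had a BT2 effect that differed between 24 h and 4 h, by the test of that difference (edgeR). Among all genes 7.14% were called there, 4.72% higher and 2.43% lower. The smallest unadjusted p among the 9 was 0.034, for Gclm, whose effect was higher by 0.44 ± 0.18 on the log2 scale at 24 h (adjusted p = 0.154). That is 1 of the 9 genes at an unadjusted p under 0.05. DESeq2 also called 0 members. Single calls appeared without the first vehicle library at 4 h and without the second BT2 library at 24 h.

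Over time, Srxn1, Txnrd1, Gclc and Nfe2l2 fell and Keap1 rose in each treatment, as scaled for library composition. The factors of that scaling (TMM) were 0.919 and 0.925 for BT2 and 0.884 and 0.807 for vehicle at 4 h. At 24 h they were 1.07 and 1.13 for BT2 and 1.18 and 1.16 for vehicle. A larger factor gives a lower scaled level, so the size of changes over time depends on this scaling. In vehicle tissue Gclc had 696 of 10397310 and 1194 of 17696344 counts at 4 h, and 1460 of 24480984 and 1374 of 20813410 at 24 h. Against total counts alone, the falls of Gclc and Nfe2l2 in vehicle tissue were much smaller than the scaled values below. Levels without the scaling were not tested. In vehicle tissue Srxn1 fell by 1.90 ± 0.25 on the log2 scale at 24 h relative to 4 h, Txnrd1 by 1.65 ± 0.28, Nfe2l2 by 0.63 ± 0.12 and Gclc by 0.57 ± 0.12, while Keap1 rose by 0.36 ± 0.12 (edgeR adjusted p from 0.00074 to 0.0354). These were 4 members lower and 1 higher, beside 23.8% of all genes lower and 23.3% higher. In BT2 tissue Srxn1 fell by 1.76 ± 0.25, Txnrd1 by 1.25 ± 0.28, Gclc by 0.93 ± 0.13 and Nfe2l2 by 0.53 ± 0.12, and Keap1 rose by 0.37 ± 0.11 (adjusted p from 0.00386 to 0.0488). The background there was 11.6% of genes lower and 11.7% higher. In BT2 tissue the calls of Nfe2l2 and Keap1 held in 0 of the 4 fits without 1 library (adjusted p up to 0.0859 and 0.178). Txnrd1 held there in 1 of the 4, without the second BT2 library at 4 h (otherwise adjusted p up to 0.0974). In vehicle tissue Keap1 was lost without the second library of either time (adjusted p = 0.177 at 4 h and 0.232 at 24 h), and Gclc without the first library at 24 h (0.0542). Hmox1, Gclm and Slc7a11 were not called over time in either treatment, nor was Nqo1, with -0.82 ± 0.30 in vehicle tissue (adjusted p = 0.0563).

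Wider gene lists around the pathway showed a mixed picture. At 4 h, of 92 tested genes in these lists other than the members, 2 were called higher and 15 lower, beside 6.67% and 9.73% of all genes. The 4 h calls here carry the limit given above, since far fewer genes were called without the second library of either treatment. At 24 h 30 were called higher and 25 lower, beside 18.9% and 20.7% of all genes. Genes for conjugation and for quinones and aldehydes were mostly on the higher side at 24 h, and genes for NADPH supply and amino acid stress on the lower side.

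Among the factors around NRF2, 0 of 13 were called higher and 5 lower at 4 h, and 2 higher and 2 lower at 24 h. Mafk and Maff, small MAF partners of NRF2, fell at 4 h by 0.72 ± 0.13 and 1.06 ± 0.19 on the log2 scale. Mafk averaged 172 ± 16 CPM in BT2 tissue and 284 ± 46 CPM in vehicle tissue (SD, n = 2 each; edgeR adjusted p = 0.0139). At 24 h the called factors were Sqstm1 (p62), which binds KEAP1 in autophagy (0.59 ± 0.10), and the NRF2 relative Nfe2l1 (0.63 ± 0.12), both higher, and Mafg (-0.35 ± 0.10) and Dpp3, a KEAP1 binding partner (-0.54 ± 0.18), both lower.

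For glutathione synthesis and cystine uptake, 1 of 11 was called higher and 3 lower at 4 h, and 1 higher and 4 lower at 24 h. Gss, glutathione synthetase, which completes the tripeptide, fell by 0.94 ± 0.14 at 4 h and 0.76 ± 0.14 at 24 h (log2, edgeR adjusted p = 0.011 and 0.00446). At 24 h it averaged 20.2 ± 3.0 CPM in BT2 tissue and 34.2 ± 0.7 CPM in vehicle tissue (SD, n = 2 each). Slc3a2, the heavy chain that carries the cystine importer to the membrane, fell by 0.76 ± 0.17 at 24 h. Chac1, which degrades glutathione, was scarce and fell by 1.73 ± 0.45 at 4 h. It averaged 1.84 ± 0.20 CPM in BT2 tissue and 5.98 ± 3.84 CPM in vehicle tissue, whose libraries differed widely (SD, n = 2 each). The exporter Abcc1 was higher at both times (0.56 ± 0.14 and 0.45 ± 0.13).

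The glutathione transferases had 0 of 13 called at 4 h, where 16.4% of all genes were called, and 9 higher and 0 lower at 24 h. Gstm7 averaged 41.3 ± 5.4 CPM in BT2 tissue and 12.9 ± 0.5 CPM in vehicle tissue at 24 h (SD, n = 2 each), a log2 fold change of 1.67 ± 0.13 (edgeR adjusted p = 0.000344). Gstm2 was higher by 1.18 ± 0.16. Genes of 1 class in this list, such as the Gstm genes, are near copies of each other, and reads may be split between them. Cardiomyocyte markers moved the same way at 24 h, with 8 of 10 called higher in BT2 tissue and 0 lower, beside 18.9% of all genes higher. Markers of other cells did so too, among them Schwann cells (4 of 7), endocardium (3 of 5) and pericytes (3 of 7), each with 0 lower. Of the fibroblast markers 4 of 9 were higher and 1 lower. The part of these markers was not tested.

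In the thioredoxin and peroxiredoxin system, 0 of 13 were called higher and 1 lower at 4 h, and 7 higher and 5 lower at 24 h. The lower gene at 4 h was the glutaredoxin Glrx (-1.29 ± 0.27), with 33.9 ± 6.2 CPM in BT2 and 82.4 ± 35.9 CPM in vehicle tissue (SD, n = 2 each). At 24 h mitochondrial thioredoxin reductase Txnrd2 was higher (0.80 ± 0.11), as was the thioredoxin inhibitor Txnip (0.97 ± 0.13). Cytosolic thioredoxin Txn1 was lower (-0.67 ± 0.10), as was the peroxiredoxin Prdx5 (-0.85 ± 0.17).

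Of the quinone, aldehyde and xenobiotic enzymes, 1 of 15 was called higher at 4 h and 8 higher and 1 lower at 24 h. Aldehyde oxidase Aox1 averaged 24.0 ± 4.8 CPM in BT2 tissue and 1.73 ± 0.72 CPM in vehicle tissue at 24 h (SD, n = 2 each), a log2 fold change of 3.81 ± 0.38 (edgeR adjusted p = 0.000695). Ephx1 was higher at both times, by 1.27 ± 0.28 and 1.81 ± 0.26. The aldo-keto reductase Akr1b8 was lower at 24 h (-1.26 ± 0.41).

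The genes for NADPH supply had 0 of 7 called at 4 h and 1 higher and 5 lower at 24 h. Tkt and Pgls, of the pentose phosphate pathway, fell by 0.72 ± 0.13 and 0.65 ± 0.11, and Me1 was higher by 0.69 ± 0.12. Of 13 macrophage markers, 8 were called lower and 1 higher in BT2 tissue at 24 h, beside 20.7% and 18.9% of all genes. The part of these markers was not tested.

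Haem and iron genes had 0 of 10 called higher and 1 lower at 4 h, and 2 higher and 1 lower at 24 h. The ferritin light chain Ftl1 fell by 0.61 ± 0.17 at 4 h and 0.99 ± 0.17 at 24 h. Fech, which inserts iron into haem, was higher at 24 h (0.75 ± 0.10), as was the porphyrin transporter Abcb6 (0.44 ± 0.11). The list of ATF4, a stress factor that also drives Slc7a11, and its targets had 6 of 12 called lower at 4 h and 9 of 12 at 24 h, with 0 higher at either time. The 12 include Atf4 itself, and Slc3a2 and Chac1, which are counted in the glutathione list too. Atf4 averaged 301 ± 40 CPM in BT2 tissue and 582 ± 119 CPM in vehicle tissue at 4 h (SD, n = 2 each; edgeR adjusted p = 0.0126). Asns, asparagine synthetase, fell by 1.27 ± 0.20 at 4 h and 1.25 ± 0.19 at 24 h, and mitochondrial Mthfd2 fell by 1.61 ± 0.18 at 24 h.

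**Figure D3:**
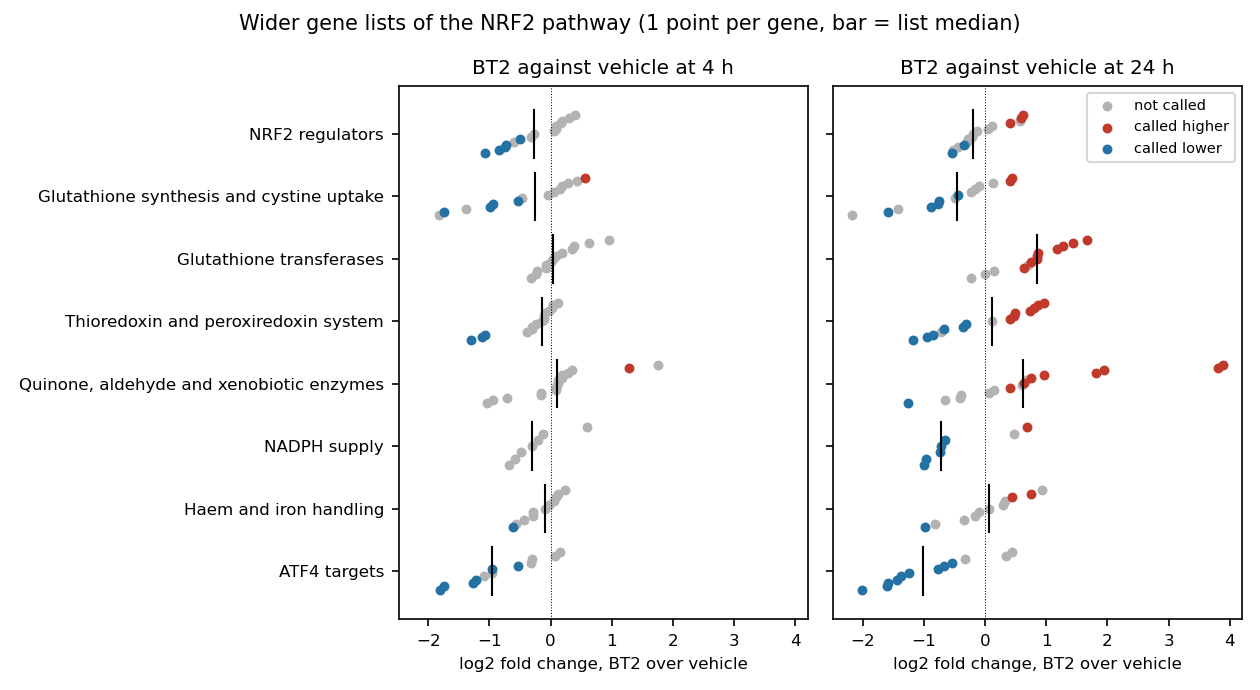
Log2 fold change of BT2 over vehicle for each tested gene of the 8 wider lists, members included, at 4 h (left) and 24 h (right). Each point is a gene, coloured where it passed the test, and the vertical bar is the list's median. At 24 h the glutathione transferases hold 9 red points and no blue one, and the list of ATF4 and its targets 9 blue points and no red one.

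In vehicle tissue at 24 h relative to 4 h, 17 of the 92 genes rose and 37 fell, beside 23.3% and 23.8% of all genes. This comparison shares the vehicle libraries with those of BT2 against vehicle, so its directions are not independent of theirs. Log2 fold changes ± SE follow, all with an edgeR adjusted p of at most 0.0333.

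Of the 13 factors around NRF2, 2 rose and 6 fell over time, with Dpp3 (1.44 ± 0.19) and the ubiquitin ligase subunit Rbx1 (0.31 ± 0.10) higher and Maff (-2.62 ± 0.20) and Mafk (-1.57 ± 0.13) lower. For glutathione synthesis 3 of 11 rose and 2 fell, with 5-oxoprolinase Oplah (1.19 ± 0.13) and glutathione reductase Gsr (0.60 ± 0.12) higher and Chac1 (-2.09 ± 0.44) and Gss (-0.55 ± 0.14) lower. Of the transferases 1 of 13 rose, Mgst1 (0.81 ± 0.26), and 6 fell, among them Gstm7 (-2.13 ± 0.13) and Gstk1 (-1.38 ± 0.12). In the thioredoxin and peroxiredoxin system 2 of 13 rose, Prdx4 (0.74 ± 0.13) and Txn1 (0.50 ± 0.10), and 8 fell, among them Txnip (-1.57 ± 0.13) and Txnrd2 (-1.06 ± 0.11).

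Of the quinone and xenobiotic enzymes 3 of 15 rose and 4 fell over time, with carbonyl reductase Cbr3 (1.53 ± 0.29) and the glucuronosyltransferase Ugt1a6 (1.93 ± 0.38) higher and Nqo2 (-1.36 ± 0.19) and Akr7a2 (-0.70 ± 0.11) lower. For NADPH supply 4 of 7 rose and 1 fell, with Tkt (1.20 ± 0.13) and Pgls (0.80 ± 0.12) higher and Me1 (-1.25 ± 0.12) lower. Of the haem and iron genes 1 of 10 rose, Ftl1 (1.25 ± 0.17), and 5 fell, among them Fech (-0.87 ± 0.10) and Alas1, which starts haem synthesis (-1.04 ± 0.21). In the ATF4 list 1 of 12 rose, the serine synthesis enzyme Phgdh (2.47 ± 0.32), and 6 fell, among them Atf4 (-1.39 ± 0.16) and Trib3 (-2.16 ± 0.36). Macrophage markers had 10 of 13 called higher and cardiomyocyte markers 9 of 10 lower over the same interval, and their part was not tested.

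The 4 genes with TGACTCAGC in their promoter windows, named for that sequence, did not move as a block at 24 h. Ephx1 was higher by 1.81 ± 0.26, Me1 by 0.69 ± 0.12 and Gstp1 by 0.64 ± 0.19, while Prdx1 fell by 0.30 ± 0.09 (log2, edgeR adjusted p from 0.00199 to 0.0309). Of the members with the core, Gclm was higher at 24 h, and Txnrd1 and Nfe2l2 were not called then.

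Across the 8 libraries, each member was set beside the genes whose log2 CPM followed it most closely. These points are 4 groups of 2, so the values mostly follow group means. Gclc lay nearest to Snrpb2 (Pearson r = 0.994) and Utp15 (0.993), Txnrd1 to Tank (0.993) and Ube2d3 (0.990), and Srxn1 to Ctu2 (0.992) and Nfx1 (0.992). Nfe2l2 lay nearest to Bcl10 (0.994) and Zfp281 (0.993) and Keap1 to Patz1 (0.989) and Vps11 (0.988). For Gclm these were Tspan12 (0.962) and Igsf3 (0.959), for Nqo1 Mynn (0.979) and Cpne3 (0.976), for Hmox1 Fam110d (0.953) and Angptl4 (0.945), and for Slc7a11 Nedd8 (0.962) and Pom121 (0.961). Some members also followed each other, with r = 0.989 for Nfe2l2 and Txnrd1, 0.975 for Nfe2l2 and Srxn1, 0.973 for Srxn1 and Txnrd1 and 0.944 for Srxn1 and Gclc. Gclm and Nqo1 did not follow these closely. Gclm was at 0.0018 with Nfe2l2 and -0.046 with Txnrd1, and Nqo1 at 0.45 with Nfe2l2 and 0.093 with Gclc. Keap1 ran inversely to Txnrd1 (-0.94), Gclc (-0.93), Srxn1 (-0.90) and Nfe2l2 (-0.89), and Gclc and Gclm were at -0.38. No member was among the 2 nearest genes of another.

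In nuclei at 24 h the members were spread unevenly over cell types. The matrices held 10324 nuclei from BT2 and 11372 from vehicle after filtering, with median depths of 2157 and 2465 UMIs (molecules counted by barcode). The 2 libraries shared 37 cell barcodes. Clustering gave 21 clusters, of which 15 could be named "-like" from marker genes and 6 stayed unnamed. With 1 library per treatment there is no test and no replicate check, and every interval is a 95% interval for counting error alone. A cluster value is given as CPM of that cluster's UMIs, and clusters are identified by their leading gene. Spp1 also led an unnamed cluster (1.90% of BT2 and 2.79% of vehicle nuclei), and the Spp1 cluster below is always the macrophage-like one.

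Hmox1 was high in the macrophage-like clusters led by Cd163 and by Spp1, at 144 CPM (127 to 163, both libraries together) and 133 CPM (123 to 143), whose intervals overlap. An unnamed cluster led by heat shock genes (Hsph1, Hspa1a) had 296 CPM (233 to 370), but this pooled value rests on 1 library. It was 90.6 CPM (55.3 to 139.9) in 132 BT2 nuclei, below the 173 CPM of the Spp1 cluster there, and 1547 CPM (1168 to 2009) in 23 vehicle nuclei. All other clusters lay at 48.8 CPM or below, with 10.1 CPM in cardiomyocyte-like nuclei and 4.95 CPM in the endothelial-like cluster led by Ifitm10. The Spp1 cluster held 4.76% of all UMIs and 26.8% of the Hmox1 UMIs in the BT2 library, and 8.19% of all UMIs and 25.1% of the Hmox1 UMIs in the vehicle library.

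Slc7a11 was concentrated in few clusters. Dendritic cell-like nuclei, led by Flt3, had 172 CPM (145 to 201), and neutrophil-like nuclei followed at 44.97 CPM (36.1 to 55.4). Cardiomyocyte-like nuclei had 2.34 CPM (1.5 to 3.48) and pericyte-like nuclei 0.964 CPM (0.199 to 2.82), and the small cluster led by Pax5 had 0 UMIs. The dendritic cell-like cluster held 0.886% of all UMIs and 27.05% of the Slc7a11 UMIs in the BT2 library, and 1.33% of all UMIs and 14.98% of the Slc7a11 UMIs in the vehicle library.

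The ligase subunits had different maxima. Gclc was highest in the heat shock cluster at 167 CPM (121 to 225) and the Spp1 macrophage-like cluster at 120 CPM (111 to 130), whose intervals overlap, and lowest in cardiomyocyte-like nuclei at 29.1 CPM (25.9 to 32.6), though the interval of the next lowest, endocardial-like nuclei (22 to 57.1), includes that value. Gclm was highest in the heat shock cluster at 50.6 CPM (26.9 to 86.5) and in pericyte-like nuclei at 39.2 CPM (32.6 to 46.8), again with overlapping intervals, and stood at 9.16 CPM (6.76 to 12.2) in the Spp1 macrophage-like cluster.

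Nfe2l2 was highest in the Spp1 macrophage-like cluster at 249 CPM (236 to 263) and in neutrophil-like nuclei at 243 CPM (221 to 266), which do not differ beyond counting error, and lowest in pericyte-like nuclei at 82.3 CPM (72.5 to 93.0). Keap1 ranged narrowly, between 29.6 CPM (22.5 to 38.3) in neutrophil-like and 51.7 CPM (40.0 to 65.8) in lymphocyte-like nuclei. Txnrd1 was highest in neutrophil-like nuclei at 305 CPM (281 to 330) and in an unnamed cluster led by P2ry10 at 293 CPM (261 to 327), and stood at 86.9 CPM (78.3 to 96.2) in the fibroblast-like cluster led by Aox3, a value within the interval of the next lowest, the cluster led by Pax5 (66.5 to 152). Nqo1 and Srxn1 were near the limit of this depth. Nqo1 was 31.1 CPM (13.4 to 61.3) in the heat shock cluster, from 8 UMIs, and 17.9 CPM (12.5 to 24.9) in neutrophil-like nuclei, from 35 UMIs, which overlap. In neutrophil-like nuclei it was 3.57 CPM with BT2 and 23.6 CPM with vehicle, from 2 and 33 UMIs, a ratio of 0.15 (0.018 to 0.59). Of all genes in that cluster 9.2% had an interval of the ratio above 1 and 10% below 1. Srxn1 was 46.7 CPM (24.1 to 81.6) in the heat shock cluster, from 12 UMIs. Srxn1 had 0 UMIs in endocardial-like, dendritic cell-like and lymphatic endothelial-like nuclei, with exact intervals that reach 7.1, 4.16 and 5.19 CPM.

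**Figure D4:**
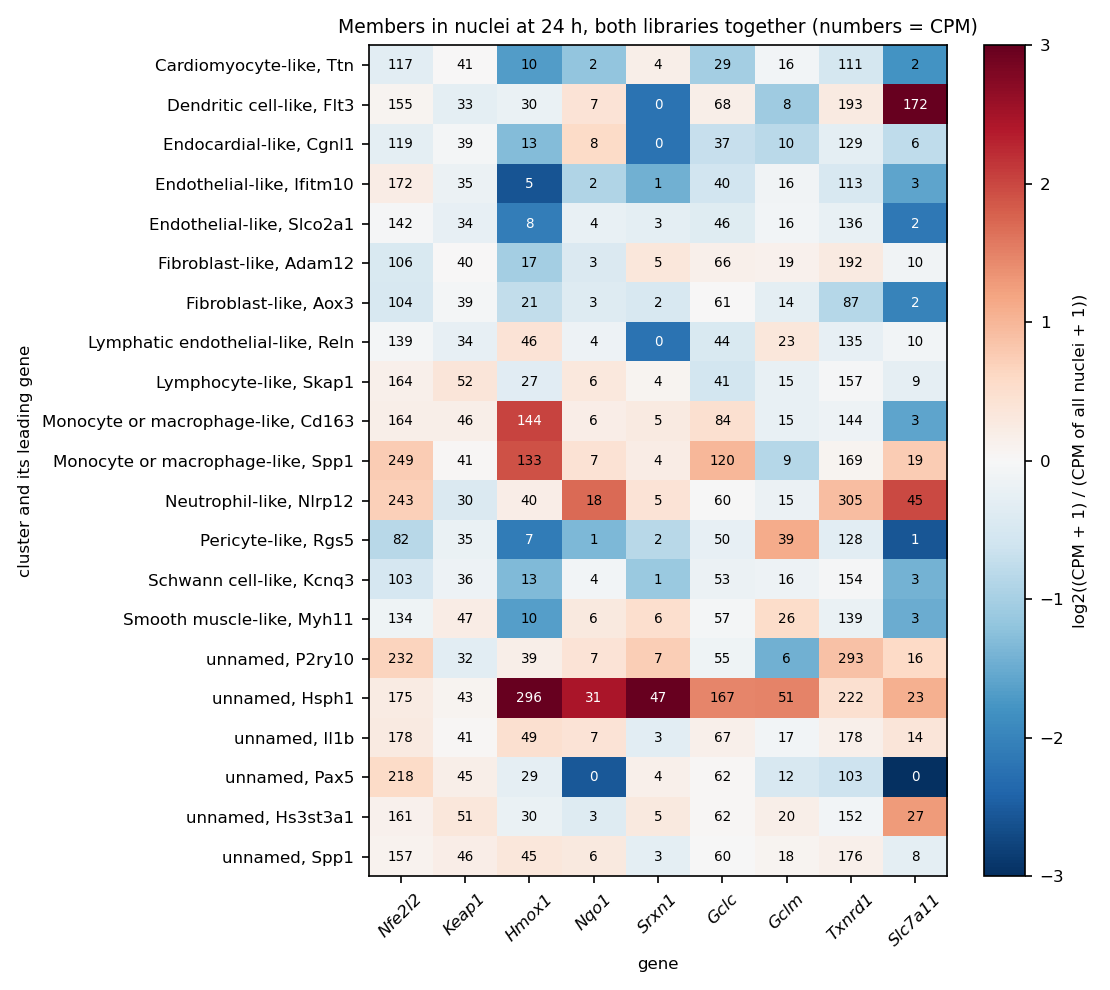
Level of each gene in the 21 clusters of nuclei at 24 h, both libraries together. Numbers are CPM, and the colour is the log2 ratio to the level in all nuclei with 1 CPM added to each. Slc7a11 stands out in dendritic cell-like nuclei (172 CPM). The unnamed cluster led by Hsph1 has the highest pooled values of Hmox1, Gclc, Gclm, Nqo1 and Srxn1, but its intervals for Gclc, Gclm and Nqo1 overlap those of the next cluster, and its Hmox1 differs between the libraries (90.6 CPM with BT2, 1547 CPM with vehicle).

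Summed over all nuclei, the BT2 library held less of 6 of the 9 transcripts than the vehicle library, in that the interval of their ratio lay below 1. Of the 18100 genes with at least 20 UMIs, 30.2% had such an interval below 1 and 23.6% above 1. Slc7a11 was 7.54 CPM (6.62 to 8.54) in the BT2 library and 12.7 CPM (11.7 to 13.8) in the vehicle library, a ratio of 0.59 (0.51 to 0.69). Nqo1 was 3.799 CPM (3.16 to 4.53) with BT2 and 5.58 CPM (4.92 to 6.32) with vehicle, a ratio of 0.68. Nfe2l2 was 128 CPM with BT2 and 159 CPM with vehicle (ratio 0.81, 0.78 to 0.84). Hmox1 was 30.6 CPM with BT2 and 37.96 CPM with vehicle (0.81, 0.74 to 0.87). Gclc was 54.5 CPM with BT2 and 63.7 CPM with vehicle (0.86, 0.81 to 0.91), and Txnrd1 149 CPM with BT2 and 167 CPM with vehicle (0.89, 0.86 to 0.92). For Keap1 (1.004), Srxn1 (0.97) and Gclm (0.94) the interval held 1.

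The libraries differed in which nuclei they held. Neutrophil-like nuclei were 2.84% of the BT2 library and 7.15% of the vehicle library, and the Spp1 macrophage-like cluster 8.12% of BT2 and 14.1% of vehicle. The macrophage-like cluster led by Cd163 was 3.72% of BT2 and 3.39% of vehicle, and cardiomyocyte-like nuclei 7.84% of BT2 and 7.11% of vehicle. Both fibroblast-like clusters were larger with BT2, at 15.3% and 13.8%, against 10.3% and 3.89% with vehicle. The part of these shares in the sums over all nuclei was not tested.

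Within clusters, 128 ratios rested on at least 20 UMIs. Of these, 22 had an interval below 1 and 6 above 1, where by cluster 6.9% to 19.1% of all genes lay below 1 and 6.24% to 12.8% above. In the Spp1 macrophage-like cluster Hmox1 was higher with BT2, at 173 CPM against 116 CPM with vehicle (ratio 1.48, 1.27 to 1.73). In the same nuclei Gclc was lower, at 88.2 CPM with BT2 against 134 CPM with vehicle (0.66, 0.54 to 0.80), and so was Slc7a11, at 9.73 CPM against 22.2 CPM (0.44, 0.23 to 0.77). Of all genes in that cluster 11.5% had an interval above 1 and 11.8% below 1. The macrophage-like cluster led by Cd163 did not share the higher Hmox1 and had less of it with BT2. With both macrophage-like clusters together Hmox1 was 156 CPM with BT2 and 125 CPM with vehicle (1.25, 1.09 to 1.42).

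In the fibroblast-like cluster led by Adam12, Hmox1 was 18.9 CPM with BT2 and 13.5 CPM with vehicle (1.40, 1.06 to 1.87), the 1 member above 1 there. The 4 below 1 were Gclc, at 61.6 CPM with BT2 and 72.5 CPM with vehicle (0.85, 0.74 to 0.97), Nfe2l2 (0.88, 0.79 to 0.98), Keap1 (0.84, 0.71 to 0.99) and Slc7a11 (0.67, 0.47 to 0.96). In the fibroblast-like cluster led by Aox3, Gclc was 53.5 CPM with BT2 and 77.8 CPM with vehicle (0.69, 0.53 to 0.89). The shares of genes with an interval above and below 1 were 11.1% and 16.1% in the first and 11.2% and 12.1% in the second.

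In the endothelial-like cluster led by Slco2a1, Gclc and Keap1 were higher with BT2 and Gclm lower. There Gclc was 55.8 CPM with BT2 and 39.3 CPM with vehicle (1.42, 1.16 to 1.73), Keap1 39.5 CPM with BT2 and 29.7 CPM with vehicle (1.33, 1.05 to 1.68), and Gclm 11.7 CPM with BT2 and 20.1 CPM with vehicle (0.58, 0.40 to 0.84). Of all genes there 11.1% had an interval above 1 and 12.9% below 1. Smooth muscle-like nuclei had 15.9 CPM of Gclm with BT2 and 45.4 CPM with vehicle (0.35, 0.18 to 0.67), from 17 and 25 UMIs. Txnrd1 was also lower there, at 123 CPM with BT2 and 171 CPM with vehicle (0.72, 0.55 to 0.95). In that cluster 7.68% of genes had an interval above 1 and 8.5% below 1.

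In cardiomyocyte-like nuclei, Txnrd1 was 93.7 CPM with BT2 and 123 CPM with vehicle (0.76, 0.67 to 0.86), while the intervals of the other 7 genes with enough UMIs held 1. In that cluster 16.8% of all genes had an interval below 1 and 12.7% above 1. Dendritic cell-like nuclei had 230.1 CPM of Slc7a11 with BT2 and 144 CPM with vehicle (1.60, 1.15 to 2.23), and 202 CPM of Nfe2l2 with BT2 against 132 CPM with vehicle (1.53, 1.07 to 2.18), where 8.64% of genes had an interval above 1 and 7.82% below 1. In the heat shock cluster Hmox1 was 90.6 CPM in 132 BT2 nuclei and 1547 CPM in 23 vehicle nuclei, from 20 and 56 UMIs, a ratio of 0.059 (0.033 to 0.099). Of all genes there 7.47% had an interval above 1 and 9.34% below 1. Lymphocyte-like nuclei had 23.7 CPM of Gclc with BT2 and 49.1 CPM with vehicle (0.48, 0.22 to 0.98), from 10 and 42 UMIs, beside 9.18% of genes above 1 and 9.58% below 1. Nfe2l2 was 97.2 CPM there with BT2 and 197 CPM with vehicle (0.49, 0.34 to 0.70), from 41 and 168 UMIs. Schwann cell-like nuclei had 65.9 CPM of Nfe2l2 with BT2 and 170 CPM with vehicle (0.39, 0.25 to 0.60), from 38 and 54 UMIs. Of all genes in the Schwann cell-like cluster 7.39% had an interval above 1 and 10.5% below 1. The unnamed cluster led by Hs3st3a1 had 58.5 CPM of Nfe2l2 with BT2 and 175 CPM with vehicle (0.33, 0.12 to 0.75), from 6 and 132 UMIs, beside 6.24% above 1 and 7.14% below 1. Without the heat shock cluster the ratio of Hmox1 over all nuclei was 0.82.

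**Figure D5:**
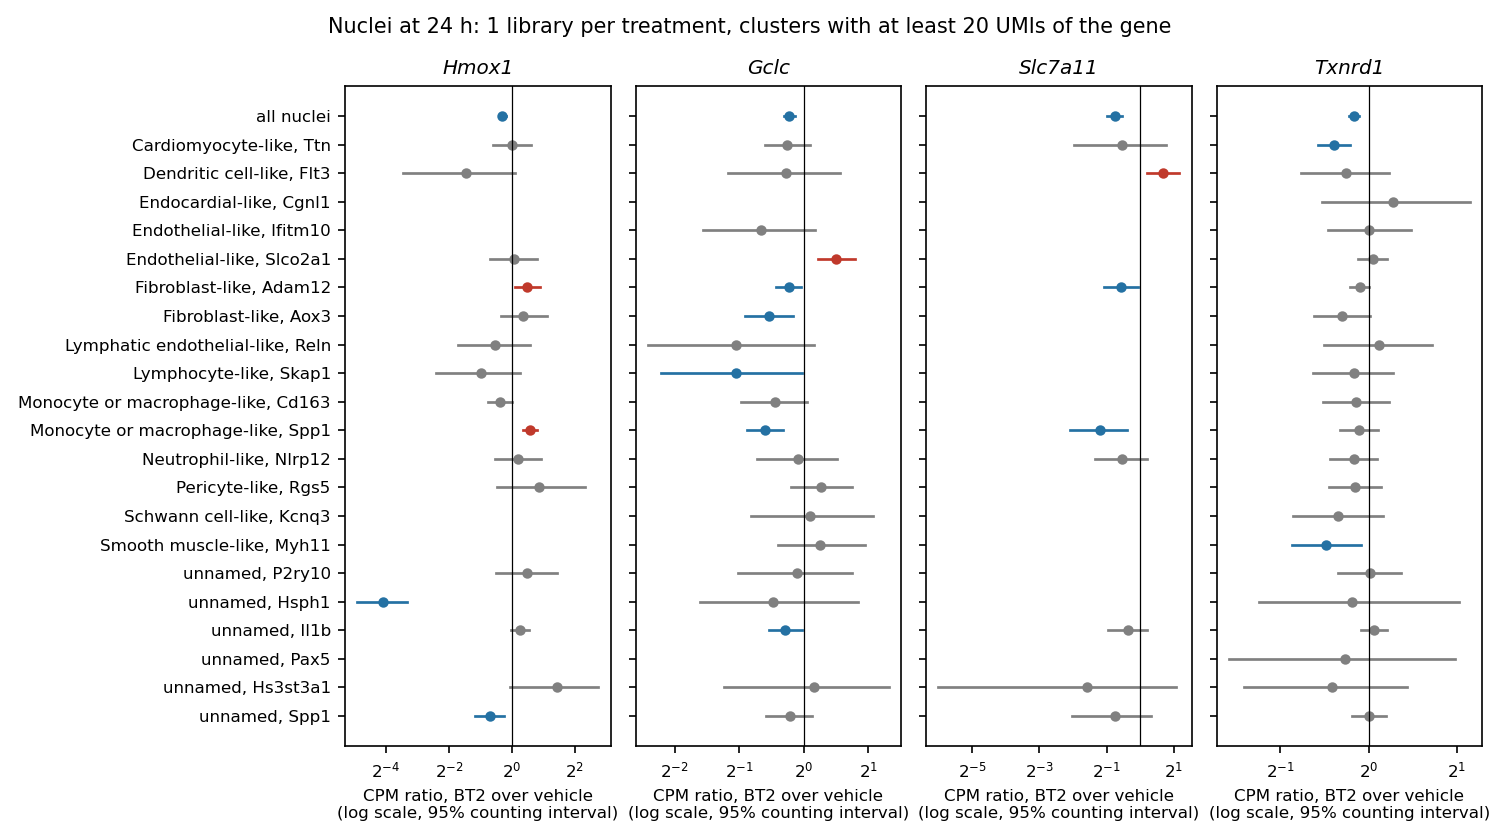
CPM ratio of BT2 over vehicle (log axis) for Hmox1, Gclc, Slc7a11 and Txnrd1 in all nuclei and in each cluster with at least 20 UMIs of the gene, with 95% counting intervals and no replicates. Red intervals lie above 1 and blue below. Gclc is red in the endothelial-like cluster led by Slco2a1 (1.42) and blue in the macrophage-like cluster led by Spp1 (0.66), where Hmox1 is red (1.48).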

How the data were processed

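The authors deposited raw counts per gene for 8 tissue libraries (stranded, polyA-selected, per the labels' protocols) and, for 2 nuclear libraries, UMI counts of each barcode. Per the submitters' processing notes, Trim Galore, STAR, featureCounts and Cell Ranger (8.0.1 per the file headers) were used with build Rnor_6.0. The sources used here give no version of the others and no strand setting, so overlapping genes are uncertain. The members and gene lists were chosen with earlier results of these data known.

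Tissue counts were fitted with edgeR 4.0.16 (R 4.3.3): filterByExpr, TMM factors, 1 mean per group over all 8 libraries, a robust quasi-likelihood fit with 4 residual degrees of freedom. The method was tested on simulated data. Of each of the 8 pathway lists, the 2 called genes with the smallest p in each direction were named, in the 3 comparisons of BT2 at each time and of time in vehicle. The other genes with values in the text carried TGACTCAGC, had a BT2 effect that differed between the times or were nearest in pattern (mean of at least 5 CPM, prior count 2). Alternatives were DESeq2 1.42.0, other scaling, no filter, single libraries left out, a replicate block and each time alone.

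Of 10497 BT2 and 11540 vehicle barcodes, those with 500 or more UMIs, 200 or more genes and no more than 5% of UMIs from mitochondrial genes were used. They were clustered with scanpy 1.11.5 in Python 3.11.15 (2000 genes, 30 components, 15 neighbours, Leiden resolution 0.5). Clusters were named from markers with a score of at least 0.9 and a median doublet score of at most 0.1, limits set after clusters were seen. Scrublet, given an expected doublet rate of 0.08, marked 0 BT2 and 1 vehicle nuclei, and doublets were not removed. The median doublet score was highest in the unnamed clusters led by Il1b (0.143) and by Spp1 (0.134), which may hold doublets and were kept. Free RNA was not corrected for. Intervals are exact (Poisson and conditional binomial, 95%).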

Additional observations from a re-analysis of the deposited data

Results flagged for a closer look

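Of 92 tested genes of the wider lists, 10 had a BT2 effect that differed between 24 h and 4 h by the test of that difference (edgeR, adjusted p under 0.05), 9 higher and 1 lower, beside 4.72% and 2.43% of all genes. The difference (24 h minus 4 h, log2) was 1.25 for Gstm2, 1.58 for Gstm7, 0.81 for Gstk1, 0.78 for Txnrd2, 0.89 for Txnrd3, 0.69 for Prdx3, 1.06 for Txnip, 3.71 for Aox1, 1.001 for Me1 and -1.68 for Mthfd2. The count of all genes called in this comparison, 1087, was 0 without the second vehicle library at 24 h and 9 without the first BT2 library at 24 h.

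Some members had BT2 over vehicle ratios in nuclei whose counting intervals lay on opposite sides of 1 in different clusters. The difference between clusters was not tested, since each treatment had 1 library. For Nfe2l2 the ratio was 1.53 in dendritic cell-like nuclei and 0.33 in the unnamed cluster led by Hs3st3a1, which had 6 UMIs with BT2. Over the 21 clusters, its interval lay above 1 in 1 and below 1 in 6, beside the shares of all genes given above. For Keap1 it was 1.33 in the endothelial-like cluster led by Slco2a1 and 0.84 in the fibroblast-like cluster led by Adam12. For Hmox1 it was 1.48 in the macrophage-like cluster led by Spp1 and 0.059 in the heat shock cluster. For Gclc it was 1.42 in the same endothelial-like cluster and 0.48 in lymphocyte-like nuclei, from 10 and 42 UMIs. For Slc7a11 it was 1.60 in dendritic cell-like nuclei and 0.44 in the macrophage-like cluster led by Spp1.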

How the results depend on the processing

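The calls of Gclc at 24 h held under every alternative run. Members called lower at 4 h were 1 without a filter on low counts and 0 when only the 4 h libraries were fitted (680 genes called), and members called higher were 1 with upper quartile factors and 1 without the filter. At 24 h members called lower were 1 without the filter, 4 with only the 24 h libraries and 4 with DESeq2, and members called higher were 1 with DESeq2. In BT2 tissue over time, Keap1 was not called with DESeq2 size factors, with the replicate block or with DESeq2, which left 0 members higher; in vehicle tissue DESeq2 also left 0. The difference of the effects had 1819 genes called without the filter. The values near 0 changed sign: Gclm at 4 h was 0.0192 with upper quartile factors, and the Keap1 difference was -0.00709 with upper quartile factors, -0.0020 with DESeq2 size factors, -0.0025 without the filter and -0.0032 with DESeq2.

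Leaving out 1 library at a time gave 29 to 2815 genes called at 4 h (members higher 0 to 1, lower 0 to 5) and 3001 to 4585 at 24 h (higher 0 to 1, lower 1 to 3). The difference of the effects had 0 to 1456 genes called (members higher 0 to 1, lower 0 to 1). Time had 4678 to 6573 genes in vehicle (members higher 0 to 1, lower 3 to 6) and 1032 to 2066 in BT2 (higher 0 to 0, lower 2 to 3). A lone library was assumed to vary like the other groups. Reversals in these fits were for Slc7a11 at 4 h (-2.58 to 0.19), Nqo1 at 4 h (-0.26 to 0.58), Gclm at 4 h (-0.15 to 0.0831), Slc7a11 in vehicle over time (-1.76 to 1.02) and Nqo1 in BT2 over time (-0.59 to 0.0533). The difference of the effects also reversed for Nfe2l2 (-0.0629 to 0.26), Keap1 (-0.0908 to 0.13), Hmox1 (-1.37 to 0.34), Srxn1 (-0.16 to 0.50), Txnrd1 (-0.15 to 0.80) and Slc7a11 (-2.37 to 0.40). The cause was not tested.

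The labels give the replicate numbers no meaning. Deviations of equal-numbered libraries correlated across genes at -0.048 to 0.094. With 2 libraries per group, such low values cannot show whether the libraries were paired. With the replicate block, Slc7a11 at 24 h had an adjusted p of 0.0448 and Nqo1 in vehicle over time 0.0272. In nuclei, all 45 alternative values over all nuclei stayed within the counting interval, among them those without the heat shock cluster and without clusters of high doublet score, both chosen after seeing the data. Within classes 4 of 76 values moved beyond it, all at a clustering resolution of 1.0: Hmox1 in neutrophil-like nuclei (0.65) and Nfe2l2 (0.77), Gclc (0.70) and Txnrd1 (0.79) in fibroblast-like nuclei. Srxn1 and Nqo1 are limited by depth, with 115 and 165 UMIs of Srxn1 in the BT2 and vehicle libraries.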
